A study of Bos taurus with 138 samples.

Results

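Sucrose gradients sort RNA by the ribosomes it carries. RNA without ribosomes stays near the top, an mRNA with a single ribosome (a monosome) runs in the middle, and mRNAs with several ribosomes (polysomes) sink furthest. The comparison described here set free RNA (fractions F1 and F2, summed) against monosome fractions (F3, F4 and F5, summed) within each of 2 gradients, A and B, of bovine blastocysts. It rests on 10 of the 138 libraries of the series, and the other 5 stages contributed 50 libraries of the same fractions. A blastocyst holds an outer trophectoderm, which gives rise to placental tissue, around an inner cell mass, and its cells make large amounts of protein and rely on maturing mitochondria. Mitochondrial mRNAs are a special case in such a gradient, because they are transcribed and translated inside mitochondria by separate ribosomes. Cytosolic mRNAs can also sit without ribosomes while in storage, during repression or before the first initiation.

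The blastocysts were untreated Bos taurus embryos made in vitro from oocytes of slaughterhouse ovaries and semen of a Holstein bull, and were exposed to cycloheximide before lysis to hold ribosomes on mRNA. Each gradient was a lysate of many pooled embryos, so the cell types of the embryo were not separated. Fewer cells of a type and less RNA per cell cannot be told apart. The comparison groups were the same fractions of untreated germinal vesicle (GV) and metaphase II (MII) oocytes and of 2-cell, 8-cell and morula embryos, with 2 gradients per stage. Another 3 blastocyst libraries, from pools of whole embryos, measured the transcriptome without fractionation.

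Total counts were lowest in F1 and ranged from 1607843 (F1, gradient B) to 6404995 over the 10 libraries. Summed, the free RNA pools held 7337631 (A) and 6868532 (B) counts and the monosome pools 16044237 and 16042805. F1 of gradient B stood apart: 58.1% of the 11739 genes tested were at 0 there, against 18.8% to 30.0% in the other 9 libraries, so results that rest on it are also given without it. The correlation of log2 levels over genes was 0.81 between the 2 free RNA pools, 0.83 between the 2 monosome pools and 0.82 (A) and 0.79 (B) between free RNA and monosome pools of the same gradient. The replicates of a fraction class were therefore about as far apart as the 2 classes. Levels below are CPM, counts divided by a library size that was scaled by the trimmed mean of M-values (TMM). They are not divided by gene length, so they compare pools and not genes. A level is a gene's share of a pool's counts and not the amount of its RNA in the fractions. A difference is log2 free RNA minus log2 monosome, positive where free RNA was higher.

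Blastocyst markers were present. The trophectoderm keratin genes KRT8 and KRT18 had medians of 1915 and 1577 CPM over the 10 libraries, GATA3 and TFAP2C had 94.6 and 288 CPM, and the pluripotency factor POU5F1 had 199 CPM. CDX2 was low at 7.07 CPM and at 0 in 2 of the 10 libraries, and NANOG was at 0 in 3. SOX2 was not among the 16706 gene symbols. Of the hypoblast markers, GATA6 had 76.2 CPM and PDGFRA 24.6 CPM, whereas GATA4 was at 0 in 5 libraries. SOX17 had a median of 0.355 CPM, was at 0 in 2 libraries and reached at most 207 CPM, in F1 of gradient B. It averaged 0.426 CPM in the whole-embryo transcriptomes. In the whole-embryo transcriptomes GATA6 averaged 7.49 CPM and PDGFRA 76.2 CPM. Of the defining cumulus and sperm genes, PTX3, ODF1 and AKAP4 were at 0 in 10 of 10 libraries, FSHR and AMH in 9, HAS2, TNFAIP6 and PRM1 in 8 and TNP1 in 7. HAS2 reached 19.1 CPM and TNP1 15.7 CPM in 1 library each. CYP19A1, the aromatase of granulosa cells, was at 0 in 1 library, with a median of 4.18 CPM and 374 CPM in F1 of gradient B. HBB was at 0 in 10 of 10 while HBA had a median of 245 CPM. The summed level of the 10 tested blood markers was 259 (A) and 158 (B) in free RNA and 355 and 305 in monosome fractions, most of it HBA. The 10 tested cumulus markers summed to 82.3 and 186 CPM in free RNA and to 118 and 180 CPM in monosome fractions, and the 6 tested sperm markers to 5.85 and 20.1 CPM and to 30.1 and 24.8 CPM. Their part in the differences below was not tested.

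Genes of the mitochondrial genome had the highest median difference of the gene lists examined. The 13 protein-coding genes of mitochondrial DNA took 35.7% (A) and 29.9% (B) of all counts in free RNA, 22.04% and 19.6% in monosome fractions, and 3.72% and 5.32% in polysomes. Both free RNA pools lay above both monosome pools. The whole-embryo transcriptomes were close to the monosome pools, at 20.8% ± 2.11 (SD, n = 3).

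**Figure D1:**
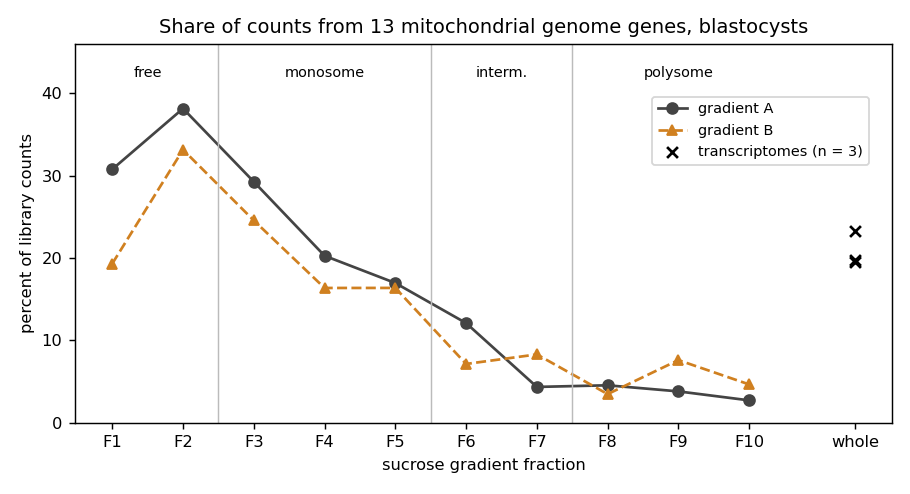
Percent of each library's counts from the 13 protein-coding genes of mitochondrial DNA (y axis) in fractions F1 to F10 of blastocyst gradients A and B and in 3 whole-embryo transcriptomes (x axis). The share peaked in F2 in both gradients, at 38.2% and 33.2%, and was below 10% from F8 to F10.

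ND3, a subunit of respiratory complex I, had the largest difference of the 13 genes. It stood at 10326 (A) and 10062 CPM (B) in free RNA and at 1430 and 1365 CPM in monosome fractions, with 159 and 291 CPM in polysomes. Replicates nearly coincided and the classes were far apart. The difference was 2.87 ± 0.31 (SE) on the log2 scale, and ND3 was the only gene called higher in free RNA by edgeR's quasi-likelihood test over the 8 blastocyst pools (adjusted p = 0.0125). That is 1 of 11739 genes tested, or 0.00852%.

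Fractions of one letter were taken to come from one gradient. With the gradient as a block in the same edgeR test, 26 genes (0.221%) were higher in free RNA, and 8 of the 13 mitochondrial genes were among them. They were ND3, ATP8, COX2, ATP6, COX3, ND1, ND2 and ND6. COX3, of complex IV, took the most counts of any gene in both classes, with 179521 and 168665 CPM in free RNA against 66905 and 59217 CPM in monosome fractions. COX2, of the same complex, had 38233 and 49748 CPM against 11442 and 11233 CPM, a difference of 1.92 ± 0.21 (blocked SE; adjusted p = 0.00558 in edgeR). ATP8 and ATP6, whose reading frames overlap on one transcript and are counted as separate genes, differed by 1.99 ± 0.26 and 1.88 ± 0.23. Because the 2 genes share sequence, their counts are not independent. The smallest of the 8 differences was that of ND6, 1.26 ± 0.20, the one of the 13 genes that is encoded on the light strand.

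The other 5 mitochondrial genes did not pass. COX1, the catalytic subunit of complex IV, had 40530 and 45881 CPM in free RNA against 56179 and 45901 CPM in monosome fractions, a difference of -0.24 ± 0.22 (adjusted p = 0.684, edgeR). The B pools of the classes were nearly equal. CYTB of complex III (0.35 ± 0.27) and ND5 (0.34 ± 0.29) overlapped between classes. ND4 (0.57 ± 0.25) and ND4L (1.16 ± 0.43) had both free RNA pools above both monosome pools without passing. Over the 13 genes the difference thus ran from -0.24 to 2.87 with a median of 1.38, beside -0.06 over all genes tested. The median was 1.52 in gradient A and 1.29 in gradient B.

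**Figure D2:**
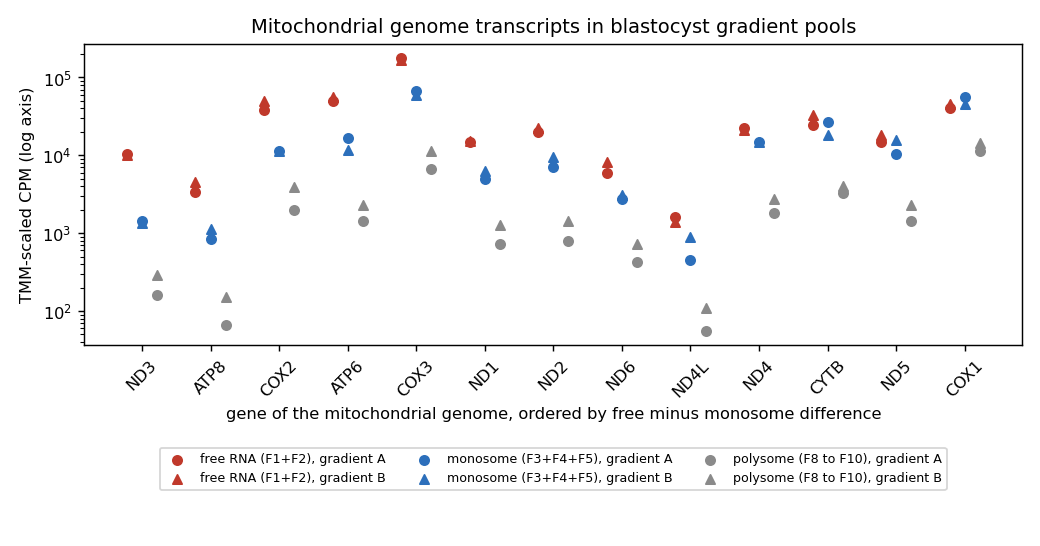
TMM-scaled CPM (y axis, log scale) of the 13 protein-coding genes of mitochondrial DNA (x axis, ordered by the difference between free RNA and monosome fractions) in free RNA, monosome and polysome pools of gradients A (circles) and B (triangles). From ND3 to ND4 both free RNA points lie above both monosome points, while COX1 lies lower in free RNA; all 13 genes are lowest in polysomes.

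Without F1 of gradient B, the 8 mitochondrial genes all stayed called in the blocked test, with ND3 at 2.80 ± 0.26 (adjusted p = 0.00221 in edgeR). In the other stages the group also took a larger share of free RNA than of monosome counts, at lower levels. In MII oocytes it took 0.25% and 0.35% of free RNA counts and 0.03% and 0.05% of monosome counts, and in morulae 15.5% and 14.9% against 7.82% and 3.51%. The fitted difference of ND3 was positive in all 5 other stages, up to 5.48 in 2-cell embryos, and the blastocyst difference did not pass the test against their mean (adjusted p = 0.387, edgeR).

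Cytosolic ribosomal protein mRNAs, whose translation is known to be regulated as a group through a tract at their start, also leaned to free RNA. All 76 members were tested; many have near-identical processed copies in the genome, between which reads can be split. In 48 of them (63.2%) both free RNA pools lay above both monosome pools, against 16.3% of all genes tested, and in 3 (3.95%) both lay below, against 20.6%. This rule of non-overlapping pools was chosen after seeing that few genes passed the test. The median difference was 0.67, and it was 0.48 in gradient A and 0.76 in gradient B. These shares and medians include F1 of gradient B, and the shares without it are not given here. In all 20 alternative settings, among them those without that library, the list's median lay above that of all genes. Without the block 0 of 76 were called by edgeR's quasi-likelihood test, although 33 had an unadjusted p under 0.05 in the direction of free RNA and 0 in the other (all genes 5.85% and 7.14%), and DESeq2 called 9 higher in free RNA (all genes 2.71%) and 0 higher in monosome fractions (all genes 3.25%).

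With the gradient as a block, 4 ribosomal protein genes were called, among them RPL39, RPS29 and RPL28. RPL39 had 2657 and 3409 CPM in free RNA against 1116 and 1301 CPM in monosome fractions, a difference of 1.32 ± 0.20 (blocked SE; adjusted p = 0.0250 in edgeR). RPS29 had 4299 and 5774 CPM against 1693 and 2367 CPM, and RPL28 had 3742 and 6565 CPM against 2013 and 2272 CPM. RPL39 and RPS29 encode some of the smallest proteins of the ribosome. At the other end stood RPL3, a large core protein, with 687 and 1489 CPM in free RNA against 1877 and 1763 CPM. RPSA, RPL4 and RPS3 also had lower means in free RNA, at -0.67, -0.31 and -0.28, each with overlapping pools. RPL3, RPSA, RPL4 and RPS3 did not pass with or without the block.

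The ribosomal protein calls depended on the thin library. Without F1 of gradient B none of the 4 called genes stayed below an adjusted p of 0.05 in the blocked edgeR test, where RPL39 had an adjusted p of 0.0625, RPL28 of 0.0829 and RPS29 of 0.329. RPL3 was then called higher in monosome fractions, with a difference of -1.19 ± 0.22 (adjusted p = 0.0483). RPL39 reached 10221 CPM in F1 of gradient B and 3584 CPM in F1 of gradient A, against 2298 and 2501 CPM in F2. In the other 5 stages the fitted differences of RPL39, RPS29 and RPL28 were positive each time, up to 4.04 for RPL28 in GV oocytes. With library totals in place of TMM, the median over all genes moved from -0.06 to -0.46 and that of the ribosomal proteins from 0.67 to 0.22, still above the median of all genes.

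The remaining 14 genes called higher in free RNA with the block were of mixed function. HMGB1, an abundant chromatin protein, had 1064 and 906 CPM in free RNA against 269 and 389 CPM in monosome fractions, a difference of 1.62 ± 0.29 (adjusted p = 0.0402, edgeR). HSPA5, the main chaperone of the endoplasmic reticulum, had 617 and 573 CPM against 190 and 166 CPM. HNRNPAB and NCL, which bind RNA, and VDAC2, a channel of the outer mitochondrial membrane, were higher in free RNA by 1.83, 2.04 and 1.75. In each of these 5 genes the pools of the 2 classes did not overlap. Without F1 of gradient B, HMGB1 stayed called (adjusted p = 0.0246) and the other 4 did not (0.0560 for HSPA5, HNRNPAB and VDAC2, 0.0697 for NCL).

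SCO1, TMEM86B, GNPTAB, MOSPD1 and WDR78 had lower levels in monosome than in free RNA pools and lower ones still in polysomes. SCO1, a copper chaperone needed to assemble complex IV, went from 419 and 807 CPM in free RNA to 73.3 and 129 CPM in monosome fractions and 21.4 and 35.8 CPM in polysomes. TMEM86B went from 275 and 358 CPM to 4.67 and 10.0 CPM in polysomes, and WDR78 from 101 and 454 CPM to 0.448 and 1.04 CPM. F1 of gradient B was again the highest library for these genes, at 3193 CPM for WDR78 against 32.5 CPM in F2 of that gradient. Without that library only SCO1 of the 5 stayed called. PREB and DNTTIP1 showed another pattern, high in free RNA and polysomes but low in monosome fractions. DNTTIP1 had 27.6 and 37.2 CPM in free RNA, 0.998 and 0.315 CPM in monosome fractions and 39.4 and 36.2 CPM in polysomes. Both genes stayed called without F1 of gradient B, but DNTTIP1 had no counts in that library, so leaving it out could not test this gene. The remaining genes were TMEM139 and SOAT1, neither of which was called without that library.

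**Figure D3:**
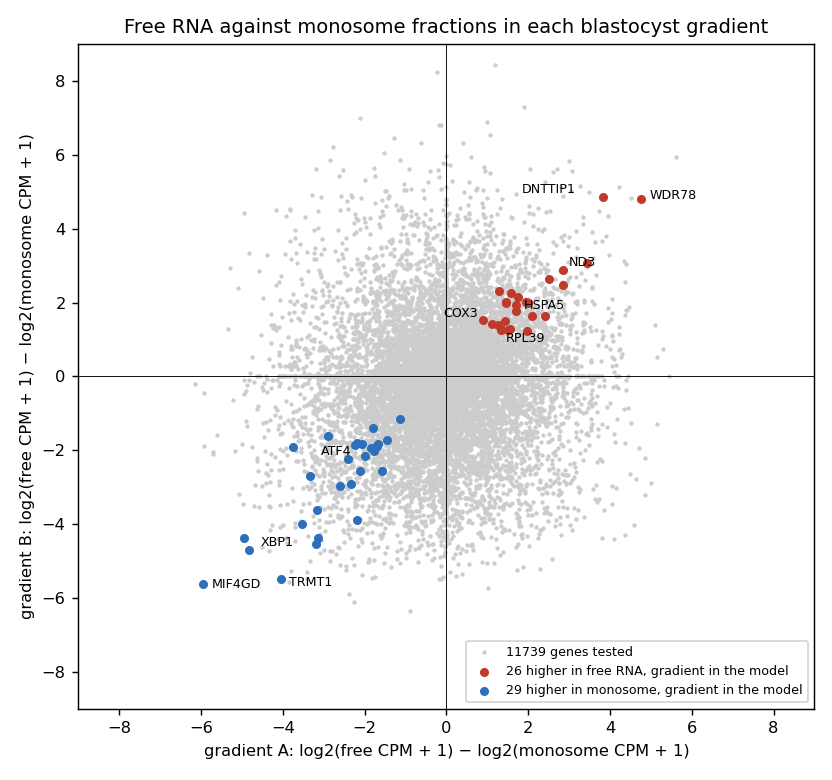
Difference between free RNA and monosome fractions, log2(CPM + 1) each, in gradient A (x axis) and gradient B (y axis) for 11739 genes (grey). The 26 genes called higher in free RNA (red) and the 29 called higher in monosome fractions (blue) with the gradient as a block lie in the corners where both gradients have the same sign.

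Genes higher in monosome fractions numbered 3 (0.0256%) in edgeR's quasi-likelihood test over the 8 pools, namely MIF4GD, TRMT1 and L3MBTL2. MIF4GD, an interactor of the translation machinery for histone mRNAs, had no counts in either free RNA pool and 60.6 and 48.2 CPM in monosome fractions. With the limit that 3 counts per pool would set, its level was at least 94.5-fold higher in monosome fractions (adjusted p = 0.00994, edgeR). TRMT1, a tRNA methyltransferase, had 4.06 and 1.55 CPM in free RNA against 83.2 and 112 CPM, a difference of -5.10 ± 0.70 (adjusted p = 0.0479, edgeR). L3MBTL2, a Polycomb-type chromatin protein, had 4.55 and 3.98 CPM against 48.5 and 60.4 CPM, a difference of -3.67 ± 0.49. Their polysome levels did not fall back to those of free RNA, and for L3MBTL2 they were 104 and 84.5 CPM. Scaled by library totals in place of TMM, the same test called 4 genes higher in free RNA and 45 higher in monosome fractions.

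With the gradient as a block, 29 genes (0.247%) were higher in monosome fractions, and 27 of them stayed called without F1 of gradient B. Genes at 0 in free RNA of gradient B, such as MIF4GD, ELK1 and WFDC1, had no counts in that library to lose. None was a mitochondrial genome or ribosomal protein gene. ATF4, XBP1 and IER2 encode transcription factors or regulators of stress and growth responses. ATF4, the transcription factor of the integrated stress response with upstream reading frames in its mRNA, had 298 and 262 CPM in free RNA and 1023 and 1065 CPM in monosome fractions. It had 630 and 583 CPM in polysomes, so its level was highest in the monosome fractions. The difference was -1.91 ± 0.25 (adjusted p = 0.0119, edgeR, blocked), against an adjusted p of 0.0643 without the block. XBP1, a transcription factor of the unfolded protein response, had 10.9 and 1.77 CPM against 103 and 57.0 CPM, a difference of -3.86 ± 0.71. IER2, an immediate early gene, had 235 and 136 CPM against 1081 and 480 CPM, with gradient A above gradient B in both classes.

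The direction of ATF4 was shared by other stages: its difference was negative in all 5, from -1.05 in MII oocytes to -0.08 in 2-cell embryos. The blastocyst value did not pass the test against their mean (adjusted p = 0.303, edgeR). ATF4 was the one called gene of the 27 tested mRNAs with known translational control. In that list 8 (29.6%) had free RNA pools below monosome pools and 5 (18.5%) above, beside 20.6% and 16.3% of all genes, and the median was -0.26. DDIT3, another gene of the stress response, had 166 and 137 CPM against 380 and 183 CPM and did not pass. FTL and FTH1, the ferritin mRNAs that carry an iron-responsive element, took many counts and had overlapping pools. FTL had 20044 and 52579 CPM in free RNA against 25764 and 37171 CPM, a difference of 0.21 ± 0.45. FTH1 had 14875 and 48337 CPM against 18092 and 38669 CPM.

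IER2 was likewise the one called gene of the 50 immediate early and short-lived mRNAs with the block, and 0 were called without it by edgeR's quasi-likelihood test. Without the block, 7 had an unadjusted p under 0.05 toward monosome fractions and 3 toward free RNA, beside 7.14% and 5.85% of all genes. DESeq2 called 5 and 0 in the same order, beside 3.25% and 2.71%. Of the 50, 8 had free RNA pools above and 11 below the monosome pools, beside 16.3% and 20.6% of all genes. The median difference was -0.27, beside -0.06 over all genes. SOCS1, a feedback inhibitor of cytokine signalling, had 25.0 CPM in both free RNA pools and 142 and 110 CPM in monosome fractions, and ZFP36, which destabilises AU-rich mRNAs, had 130 and 105 CPM against 448 and 300 CPM. These genes, with JUNB at 38.7 and 18.8 CPM against 122 and 109 CPM, were named after their values were seen. None of them passed the blocked edgeR test (adjusted p = 0.0656, 0.0507 and 0.129). DUSP1 and CCN2, chosen the same way, leaned to free RNA. As unweighted means of single libraries and not of pools, DUSP1 averaged 279 CPM over F1 and F2 and 137 CPM over F3 to F5. CCN2 averaged 235 and 102 CPM. In gradient A, DUSP1 had 214 and 266 CPM in F1 and F2 against 124, 86.9 and 135 CPM in F3 to F5. In gradient B its F1 stood at 440 CPM, but F2 at 198 CPM was close to F3 and F4 (186 and 200 CPM). CCN2 had 356 CPM in F1 of gradient B and 207 CPM in F2, against 167, 102 and 69.1 CPM in F3 to F5.

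Other genes higher in monosome fractions encode proteins of the nucleus. VPS72, a subunit of histone-exchange complexes, had 58.3 and 50.9 CPM in free RNA, 255 and 308 CPM in monosome fractions and 42.8 and 53.8 CPM in polysomes. USP36, a nucleolar deubiquitinase, had 54.2 and 101 CPM, 260 and 369 CPM, and 14.1 and 24.6 CPM in the same order. The level of both genes was thus highest between the ends of the gradient. SGF29, a reader of histone methylation, had 9.58 and 16.6 CPM against 106 and 112 CPM, and ASF1B, a histone chaperone, had 65.0 and 12.4 CPM against 299 and 198 CPM. The small ubiquitin-like modifier gene SUMO3 had 44.8 and 62.9 CPM against 242 and 300 CPM.

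SLC25A4 and SLC25A6, which exchange ADP and ATP across the inner mitochondrial membrane, had differences of -2.94 ± 0.52 and -1.15 ± 0.21 with the block (adjusted p = 0.0402 and 0.0477, edgeR). SLC25A6 had 747 and 1165 CPM in free RNA against 1639 and 2616 CPM in monosome fractions, and SLC25A39 had 38.8 and 85.9 CPM against 534 and 327 CPM. SLC25A4 had an adjusted p of 0.0609 without F1 of gradient B. TUBA1C, an alpha-tubulin gene whose reads can be shared with close copies, took the most counts of these 29 genes, with 691 and 1341 CPM against 2402 and 3528 CPM. TOMM40L and RNF25 had differences of -3.99 ± 0.60 and -3.89 ± 0.60. ELK1 and WFDC1 had at most 3 counts in each free RNA pool, so they are given by level only. ELK1 had 0.487 and 0 CPM against 41.3 and 25.0 CPM, and WFDC1 had 0.162 and 0 CPM against 34.9 and 19.6 CPM. The genes of the 29 not described were ABTB1, PLA2G15, TBRG4, PPP2R1A, GPBAR1, SUPT4H1, GM2A, ZDHHC4, TAX1BP3 and CHID1. USP36 and SLC25A4 were the 2 that lost their call without F1 of gradient B, with USP36 at an adjusted p of 0.0502.

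**Figure D4:**
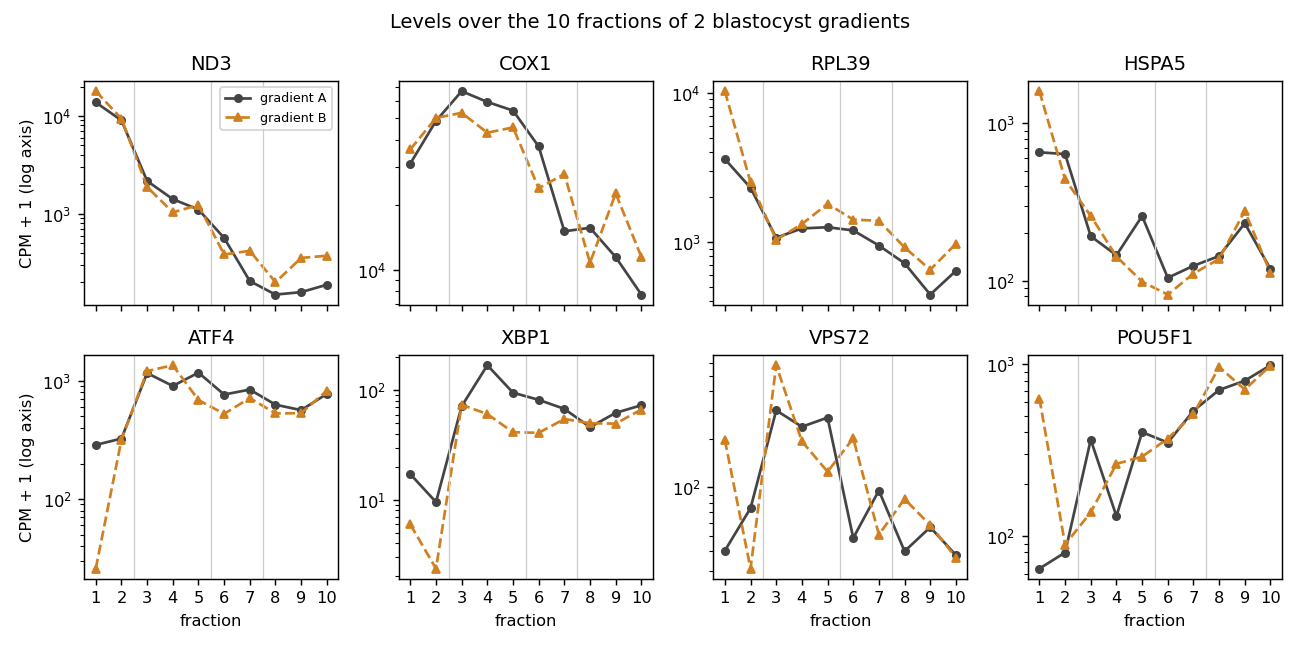
CPM + 1 (y axis, log scale; a separate scale per panel) of 8 genes in fractions F1 to F10 (x axis) of blastocyst gradients A and B, with vertical lines between free RNA, monosome, intermediate and polysome fractions. ND3 falls along the gradient, ATF4 and XBP1 step up from F2 to F3, VPS72 peaks in the monosome fractions and POU5F1 is highest in F10; F1 of gradient B lies apart for RPL39, HSPA5, ATF4 and POU5F1.

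Genes of the blastocyst lineages were found on both sides of the comparison. Of 38 tested trophectoderm genes, 0 were called by edgeR's quasi-likelihood test with or without the block, 7 (18.4%) had free RNA pools above and 10 (26.3%) below the monosome pools, beside 16.3% and 20.6% of all genes, and the median was 0.10. Unadjusted, 4 and 5 of them had a p under 0.05 (all genes 5.85% and 7.14%), and DESeq2 called 1 and 4 (all genes 2.71% and 3.25%). Of 21 pluripotency genes 3 lay above and 6 below, and DESeq2 called 0 and 2. Of 20 hypoblast genes 6 lay above and 4 below, and DESeq2 called 1 and 0. KRT8 had 2068 and 2227 CPM in free RNA against 1984 and 1523 CPM, and KRT18 had 1498 and 1666 CPM against 1385 and 1371 CPM, with polysome levels of 6107 and 4560 CPM. TFAP2C, a trophectoderm transcription factor, stood at 530 and 542 CPM in free RNA against 203 and 251 CPM, without passing (adjusted p = 0.182, edgeR). As single libraries, KRT8, KRT18 and TFAP2C were highest among F1 to F5 in F1 of gradient B, the library that stood apart. They had 6626, 4582 and 2166 CPM there, and their differences without that library are not given here. POU5F1 had 70.2 and 156 CPM against 288 and 214 CPM and reached 798 and 813 CPM in polysomes, and its difference of -1.15 ± 0.38 did not pass (adjusted p = 0.260). Among the F1 to F5 libraries POU5F1 was also highest in F1 of gradient B, at 630 CPM, which raised its free RNA level there. Without that library, 1 gene of the pluripotency list was called in the blocked edgeR test.

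**Figure D5:**
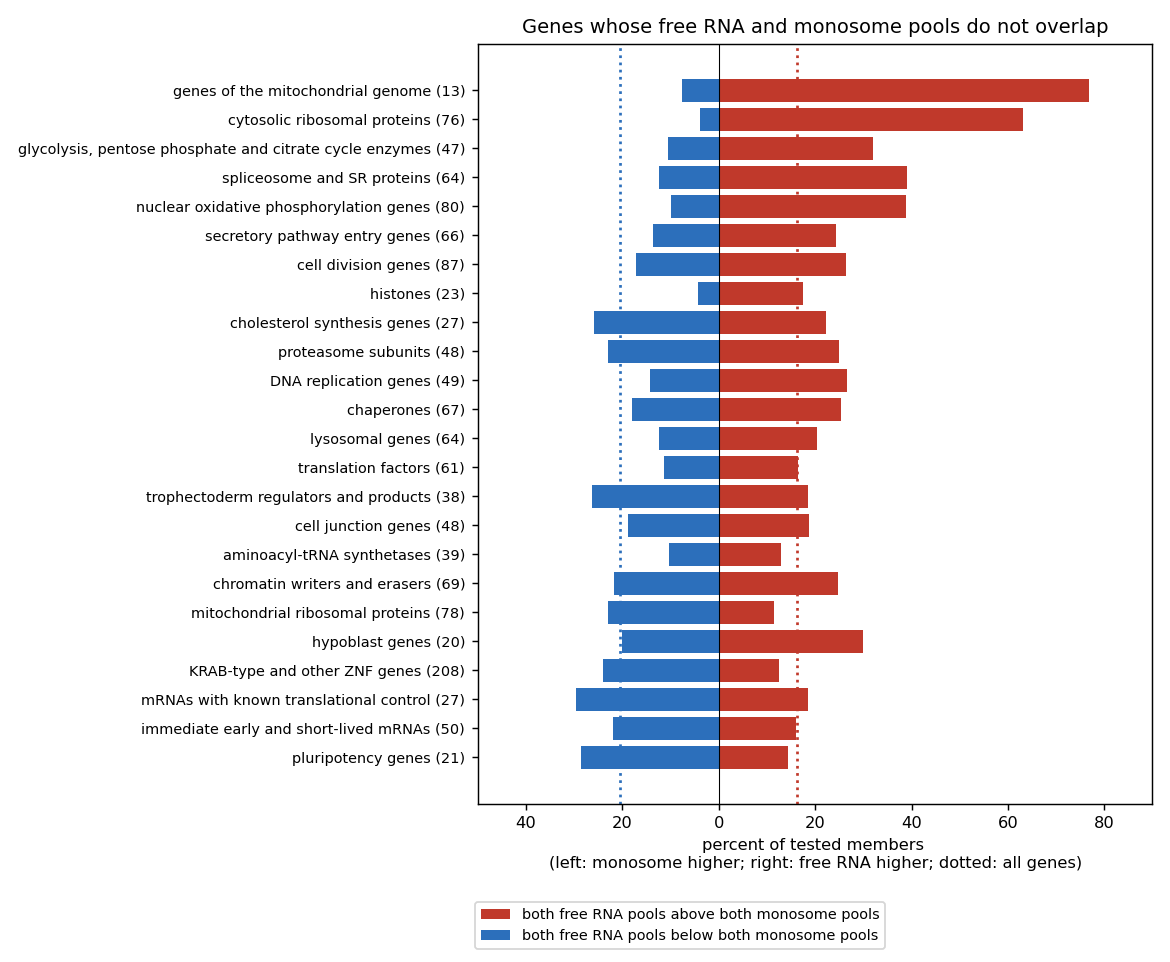
Percent of the tested members of each gene list (rows, number tested in brackets) whose free RNA pools both lay above (red, to the right) or both below (blue, to the left) both monosome pools, with dotted lines at 16.3% and 20.6% for all genes tested. Mitochondrial genome and cytosolic ribosomal protein genes lie furthest to the right, at 76.9% and 63.2%.

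Nuclear genes of oxidative phosphorylation had a smaller median difference than the mitochondrial ones. Of 80 tested, 31 (38.8%) had free RNA pools above monosome pools and 8 (10.0%) below, with a median difference of 0.29, and 0 were called by edgeR with or without the block. Unadjusted, 19 had a p under 0.05 toward free RNA and 3 toward monosome fractions (all genes 5.85% and 7.14%), and DESeq2 called 7 and 0 (all genes 2.71% and 3.25%). UQCR10, a small subunit of complex III, had 4559 and 5080 CPM against 2460 and 2489 CPM. COX5B had 3626 and 4477 CPM against 3725 and 2905 CPM, which overlapped. The 78 mitochondrial ribosomal protein genes had 9 (11.54%) above and 18 (23.1%) below and a median of -0.07, near the 16.3%, 20.6% and -0.06 of all genes.

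Spliceosome genes (64 tested; 25 above and 8 below; median 0.34) and enzymes of central carbon metabolism (47 tested; 15 above and 5 below; median 0.35) held no gene called by edgeR either way with or without the block. Unadjusted, 15 and 4 spliceosome genes and 8 and 3 metabolic enzymes had a p under 0.05 in the order free RNA and monosome, and DESeq2 called 7 and 1, and 4 and 0. In the same order, the shares of all genes were 5.85% and 7.14% unadjusted and 2.71% and 3.25% by DESeq2. The glycolytic enzyme PGAM1 had 2550 and 4269 CPM in free RNA against 1593 and 2248 CPM in monosome fractions, and GAPDH overlapped, with 6219 and 13815 CPM against 6398 and 8263 CPM. The splicing protein SNRPD2 had 1640 and 1630 CPM against 1031 and 1035 CPM. With library totals in place of TMM the medians of the nuclear oxidative phosphorylation, spliceosome and metabolic lists turned negative, at -0.15, -0.05 and -0.07, and stayed above the -0.46 of all genes. Zinc finger (ZNF) genes had 26 of 208 above (12.5%) and 50 below (24.04%), near the 16.3% and 20.6% of all genes, with a median of -0.26, and 0 were called by edgeR, with 3 and 14 at an unadjusted p under 0.05 and 2 and 9 by DESeq2.

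Among the other lists with 20 or more tested members, medians ran from -0.35 for 21 pluripotency genes to 0.25 for 66 secretory pathway entry genes and 87 cell division genes. Of the pluripotency genes 3 (14.3%) lay above and 6 (28.6%) below, beside 16.3% and 20.6% of all genes. For secretory pathway entry genes these were 16 (24.2%) and 9 (13.6%), and for cell division genes 23 (26.4%) and 15 (17.2%). Of the 67 chaperone genes, HSPA5 was the one called with the block, higher in free RNA (0.221% of all genes). Of the 64 lysosomal genes it was GM2A, the activator protein for ganglioside breakdown, higher in monosome fractions (0.247% of all genes). Of noncoding RNA little was measured: 16367 of the 16373 symbols that matched RefSeq were protein coding, 2 were long noncoding RNAs, and none of the listed snoRNA, microRNA or long noncoding RNA symbols was in the table.

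Compared with the other 5 stages, 39 of 14504 genes differed in the size of the free RNA to monosome difference by edgeR's quasi-likelihood test, 15 (0.103%) with a higher and 24 (0.165%) with a lower value in blastocysts. MIF4GD was the clearest of these (adjusted p = 0.000112). In the other stages it had 25.2 to 751 CPM in free RNA with a positive fitted difference in all 5, whereas in blastocysts its free RNA pools held no counts. AURKC, a kinase of meiosis, had 8.30 and 6.29 CPM in blastocyst free RNA against 73.2 and 49.5 CPM in monosome fractions on the scale of the 24 pools, and its difference was positive in 4 of the other 5 stages (adjusted p = 0.0107). NUP93, a nuclear pore scaffold, had 79.1 and 55.3 CPM against 29.1 and 20.6 CPM in blastocysts and a negative difference in 4 of the other 5 stages (adjusted p = 0.0330). L3MBTL2, VPS72, SGF29 and RNF25, called higher in monosome fractions with the block, also had lower values in blastocysts than in the other stages (adjusted p = 0.0278, 0.0295, 0.0261 and 0.0313, edgeR), and among the genes called higher in free RNA DNTTIP1 had a higher value (0.0295). None of the 13 mitochondrial or 76 ribosomal protein genes was called in this test, where the lowest adjusted p among them was 0.0825, of RPSA.

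Other tests of the same 8 pools called more genes: edgeR's likelihood ratio test gave 128 (1.09%) higher in free RNA and 182 (1.55%) higher in monosome fractions, and DESeq2 gave 318 and 381. Of the 55 genes called with the block, 49 were among the calls of the likelihood ratio test and 54 among those of DESeq2. With 2 gradients the spread of a gene is known only roughly, and the p-values measure the spread between these 8 pools. That spread includes the intermediate and polysome pools, whose replicates correlated at 0.86 and 0.93, more closely than those of free RNA and monosome pools. With only the 4 free RNA and monosome pools, 0 genes were called, and ND3 had an adjusted p of 0.0552 (edgeR).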

How the data were processed

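The authors sequenced Smart-seq libraries of 10 gradient fractions and of whole embryos and quantified them with Salmon. They deposited estimated counts per gene symbol (expected counts; 11.7% were not whole), for 138 libraries, with no normalization. The study's methods name the ARS-UCD1.2 annotation and the submitters' processing notes UMD3.1, so no coordinates are given. F1 and F2 were summed as free RNA and F3 to F5 as monosomes within each gradient, F6 to F7 and F8 to F10 likewise, and the sums were rounded. The 8 blastocyst pools entered edgeR 4.0.16 (R 4.3.3; TMM, filterByExpr, quasi-likelihood test, Benjamini-Hochberg adjustment, threshold 0.05), the 24 free RNA and monosome pools of 6 stages a second fit for the difference between stages. DESeq2 1.42.0 was an alternative. Standard errors of differences are the difference divided by the root of the test's F. The fits were tested on simulated data.

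Fractions that share a letter were taken to come from one gradient, although the labels give only the letter. On that reading the pools are paired by construction of the experiment. The deviations of free RNA and monosome pools from their class means correlated weakly over genes (r = 0.03), and blocked values are given beside the results they change. The study stated that it performed the gradients in biological duplicate. No 2 libraries held identical values. Named genes were the 12 largest called differences in each direction with a mean of at least 10 CPM, up to 3 called or the 2 most abundant members of each list, the 6 most abundant genes of each class, up to 6 genes per direction of the test between stages, lineage markers, and, beyond this rule, the genes called with the block and others chosen after their values were seen. The members and gene lists were chosen with earlier results of these data known. RefSeq (ARS-UCD2.0) was used for 16373 of 16706 symbols, for gene type only. A comparison with protein length was not run, as no protein table was used here. The values of 1 called gene are not reported here.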

Additional observations from a re-analysis of the deposited data

Results flagged for a closer look

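The genes below differed between blastocysts and the other 5 stages in the free RNA to monosome difference, by edgeR's quasi-likelihood test of the difference itself over 24 pools, and levels are on the scale of those pools. Those with a higher value in blastocysts were LATS2 (adjusted p = 0.00155), DNTTIP1 (0.0295), DHX57 (0.0295), NUP93 (0.0330) and GAREM2 (0.0410). LATS2 and GAREM2 had 0 counts in both blastocyst monosome pools. GAREM2 rested on 1 library: its free RNA counts were all in F1 of gradient B, the library that stood apart, and without that library it was at 0 in both classes and not called (adjusted p = 0.999994). The other 10 genes stayed called without it, but DNTTIP1, MIF4GD and UNKL had 0 counts in that library, so leaving it out could not test them. LATS2 had 7.51 and 33.8 CPM in free RNA. Those with a lower value were MIF4GD (adjusted p = 0.000112), ELK1 (0.00262), AURKC (0.0107), UNKL (0.0205), ZNF512B (0.0217) and RND1 (0.0245). UNKL had 0 counts in both blastocyst free RNA pools and 3.14 and 39.0 CPM in the monosome pools.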

How the results depend on the processing

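Counts of calls are given as higher in free RNA and higher in monosome fractions, 1 and 3 in the quasi-likelihood test. They were 26 and 29 with the gradient as a replicate block, 0 and 0 with 4 pools only, 25 and 62 with 24 pools of all stages, 128 and 182 by the likelihood ratio test, 318 and 381 by DESeq2, 4 and 45 by library totals, and 212 and 239 with no filter on low counts. They were 2 and 7 with F2 alone as free RNA, 0 and 0 with F1 alone, and 2 and 1 with F4 and F5 as monosome fractions. Of the alternatives chosen after seeing the data, leaving out mitochondrial genome counts gave 0 and 1, leaving out F1 of gradient B 3 and 7, and doing so with the block 13 and 40. Leaving out 1 replicate pool, or 1 gradient of the 24 pools, gave 0 to 214 and 1 to 267, both highest without free RNA of gradient A and lowest without the monosome pool of gradient A, with 8 and 66 without free RNA of gradient B and 0 and 3 without the monosome pool of gradient B, and the lone pool was assumed to vary like the others. The 39 genes that differed between blastocysts and other stages became 64 with the replicate block, 726 by the likelihood ratio test, 68 with F2 alone, and 15 to 175 without 1 blastocyst gradient (175 without A, 15 without B). The causes were not tested. ND3 stayed called in 13 of 19 settings, MIF4GD in 18 of 20, L3MBTL2 in 12 of 20 and TRMT1 in 10 of 20. No gene named here that was called changed direction. The comparison with protein length was not run. The few counts of low genes in the free RNA pools, 3 counts being 0.487 (A) and 0.664 (B) CPM there, limit what can be seen below those levels.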
